A study of Paeonia lactiflora with 8 samples.

Results

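The microRNAs miR162, miR168 and miR403 were examined in Paeonia lactiflora, the herbaceous peony whose root is used medicinally for paeoniflorin. Members were chosen by name: all deposited sequences named miR162, miR168 or miR403, with identical sequences counted once. The rule found 10 of the 270 different sequences in the table, 3 named miR162, 5 named miR168 and 2 named miR403. The series profiled small RNA in root, leaf and flower collected at blossom and in fruit collected at the young stage, with 2 libraries per tissue (n = 2) that the labels call biological replicates. Organ and stage cannot be told apart for fruit, and the labels give no genotype or treatment that separates the groups. Only microRNAs were measured, and no microRNA list that defines an organ was available, so the tissue labels were not checked against markers. In whole organs, fewer cells that make a microRNA and less of it per cell cannot be told apart.

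Plant microRNAs are cut from hairpin precursors by DICER-LIKE 1 as a short duplex, and 1 strand is then loaded into an ARGONAUTE protein, usually AGO1, to guide cleavage of matching messenger RNAs. In Arabidopsis and other plants the 3 families act on this machinery itself: miR162 targets the messenger RNA of DICER-LIKE 1, miR168 targets that of AGO1, and miR403 targets that of AGO2, an ARGONAUTE known for antiviral defence. These feedback loops are background from other plants, and no target was measured here.

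The sequences below are those on which the values turn, written 5′ to 3′ as deposited, with T for U and with the seed, bases 2 to 8, in capitals. Each name starts with the species whose miRBase entry was matched (ath is Arabidopsis, lus is flax, mes is cassava, ata is the wheat relative Aegilops tauschii). In a name, L- or R- counts bases lacking at the 5′ or 3′ end, + counts extra bases, and ss marks substitutions.
ath-miR168a-5p: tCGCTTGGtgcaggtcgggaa
ath-miR168a-3p: cCCGCCTTgcatcaactgaat
ath-miR168a-5p_L-2: gCTTGGTGcaggtcgggaa
lus-miR162a: tCGATAAAcctctgcatccag
ath-miR162a-5p_L-1: gGAGGCAGcggttcatcgatc
lus-MIR162b-p3_2ss16GA17AG: aGGGTTGTgaagaggagg
mes-miR403a_1ss19TC: tTAGATTCacgcacaaacccg
ath-miR403-3p_R-2_1ss19TC: tTAGATTCacgcacaaacc

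The forms fell into strands of a duplex and shortened copies. ath-miR168a-5p and ath-miR168a-3p, the guide strand and its partner, formed 14 Watson-Crick and 3 G:U pairs when laid against each other without gaps, with 2 unpaired bases at the 3′ end of each. lus-miR162a, the guide strand of that family from the 3′ arm, and ath-miR162a-5p_L-1, from the 5′ arm, formed 16 Watson-Crick pairs, also with 2 bases over at each 3′ end. ath-miR168a-5p_L-2 was ath-miR168a-5p without its first 2 bases, which shifts the seed. ath-miR403-3p_R-2_1ss19TC was mes-miR403a_1ss19TC without its last 2 bases, which leaves the seed as it was, and both carry the substitution T19C against the miRBase sequence, counted from the 5′ end. The 18-nt lus-MIR162b-p3_2ss16GA17AG shared a longest run of 2 bases with lus-miR162a and of 5 with ath-miR162a-5p_L-1, as long as its longest run with any miR168 or miR403 form. Laid against them without gaps, it formed at best 7 Watson-Crick pairs with each, with 1 G:U pair for lus-miR162a and 3 for ath-miR162a-5p_L-1. Its name (p3) gives it the 3′ arm, as lus-miR162a has, so the pairing with lus-miR162a says nothing about its family. This 18-nt form was placed in the family by its deposited name. ath-miR168a-5p shared its seed with ata-miR168-5p, described further on, the miR403 forms shared theirs, and no sequence outside the 10 members carried any of these seeds.

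The libraries differed in depth and in likeness between replicates. The values are normalized read counts whose scaling the file does not explain. Depth here means the implied reads of the 270 listed sequences, from the step between low values, and not all reads of a library. It ran from 73898 reads in root 2 to 724509 in flower 2. A library at 0 could hold up to 3 reads, worth between 1.3 in flower 1 and 7.62 in root 2. Root replicates were least alike, with a Pearson's r of 0.697 on the log2 scale across sequences, which are not independent replicates, against 0.864 to 0.916 in the other tissues. Of the summed values of the 270 listed sequences, those of 18 and 19 nt held 16% in root 2 and 0.547% to 1.93% in the other libraries. Test results that rest on a root library are therefore also given without it.

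miR168, the regulator of AGO1, was the most abundant of the 3 families in all 8 libraries. ath-miR168a-5p had a normalized read count of 45382 for root 1, 2312 for root 2, 9026 for leaf 1, 7440 for leaf 2, 2980 for flower 1, 2629 for flower 2, 10122 for fruit 1 and 10867 for fruit 2. On the deposited scale, leaf, flower and fruit each had close replicates that did not overlap, with fruit above leaf and leaf above flower. The root libraries were the highest and the lowest of all 8 on that scale. The mean was 23847 ± 30455 for root, 8233 ± 1121 for leaf, 2805 ± 248 for flower and 10495 ± 527 in fruit (SD, n = 2). Fruit was 3.74-fold above flower, with a log2 difference, flower minus fruit, of -1.91 ± 1.31 (SE, adjusted p = 0.582, limma), and leaf was 2.94-fold above flower (adjusted p = 0.588, limma). Here and below, 1 was added to each value before taking log2, and adjusted p-values are Benjamini-Hochberg values over the 216 sequences tested, called under 0.05. As an F test over the 4 tissues the guide strand was not called (adjusted p = 0.591, limma).

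That outcome changed with 1 root library left out but not with both left out. With either root library left out, ath-miR168a-5p passed the threshold of the F test, the lone root library being assumed to vary like the other tissues. Calls over the whole table rose in these 2 fits as well, as given at the end, so the change was not particular to this strand. With both left out, an alternative chosen after seeing the data, ath-miR168a-5p was not called (adjusted p = 0.0635 over leaf, flower and fruit, limma). Over all 13 alternatives the adjusted p ran from 0.0259 to 0.813. Shares of a library, here and below, are taken over the 270 listed sequences and not over all its small RNA. They do not depend on the deposited scaling. By share, ath-miR168a-5p was 17.9% and 1.23% for root, 3.38% and 3.02% for leaf, 1.33% and 0.49% for flower, and 5.64% and 5.85% for fruit. It ranked between the third most abundant sequence, in root 1, and the 16th, in flower 2.

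The partner strand varied less. ath-miR168a-3p was 2440 for root 1, 745 for root 2, 1206 for leaf 1, 767 for leaf 2, 1544 for flower 1, 335 for flower 2, 1700 for fruit 1 and 1498 for fruit 2. The tissues overlapped except that both fruit libraries lay above both leaf libraries, and no pair of tissues was called (F test adjusted p = 0.743, limma).

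**Figure D1:**
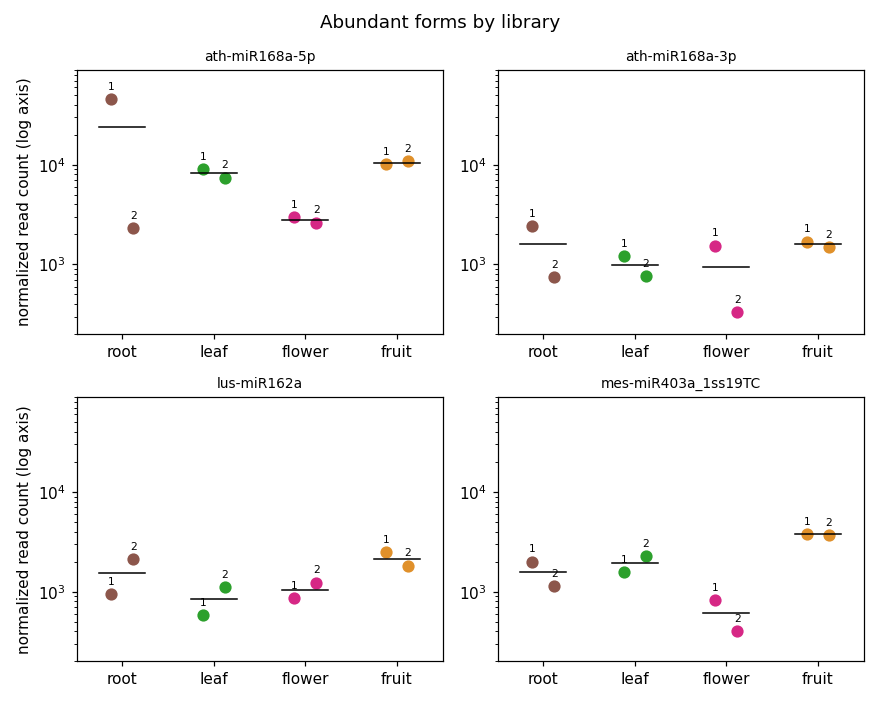
Normalized read count (log axis) of the 4 abundant forms in each library, by tissue; points are libraries, numbered by replicate, and lines are means of 2. The root libraries of ath-miR168a-5p lie at 45382 and 2312, outside all other libraries, and both fruit libraries of mes-miR403a_1ss19TC, at 3802 and 3718, lie above all others.

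The arm balance of miR168 was next compared, since a ratio within a library does not depend on how libraries were scaled. The 5p strand exceeded the 3p strand in 8 of 8 libraries. The ratio of ath-miR168a-5p to ath-miR168a-3p was 18.6 for root 1, 3.11 for root 2, 7.49 for leaf 1, 9.71 for leaf 2, 1.93 for flower 1, 7.84 for flower 2, 5.95 for fruit 1 and 7.26 for fruit 2. Leaf and fruit replicates were close to each other, whereas those of root and of flower lay far apart. The mean log2 ratio was 2.67 ± 0.999 (SD, n = 8), a geometric mean of 6.37 to 1, and by tissue it was 2.93 ± 1.83 for root, 3.09 ± 0.26 for leaf, 1.96 ± 1.43 for flower and 2.72 ± 0.20 in fruit (SD, n = 2). The tissues did not differ beyond the spread between replicates (F = 0.366, exact permutation p = 0.8 over all ways to split the 8 libraries into 4 pairs, where the smallest possible p is 0.00952). Leaving out 1 library at a time gave an exact permutation p between 0.267 and 0.943.

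The strands behind these ratios moved in different ways. In flower the 5p values of 2980 and 2629 were alike on the deposited scale, and the 3p values of 1544 and 335 were not. As a share of the library both strands differed between the flower libraries. The 5p strand was at 1.33% and 0.49%, and the 3p strand at 0.689% and 0.0625%. Which strand moved therefore depends on the scaling. In root both strands were higher in root 1, the 5p strand by more. Put as a share of both strands, 3p made up 34.1% in flower 1 and 24.4% in root 2, and between 5.1% and 14.4% in the other 6 libraries. Adding the rarer forms to each arm left the mean log2 ratio at 2.67. For context, 17 hairpins in the table had sequences named for both arms, and in 4 of them both arms averaged at least 100. Between libraries the log2 ratio of ath-miR168a had an SD of 0.999, against 1.14 for the hairpin of gma-miR396a, 2.31 for ath-miR160a and 2.92 for ath-miR396b, values given as a description without a test.

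**Figure D2:**
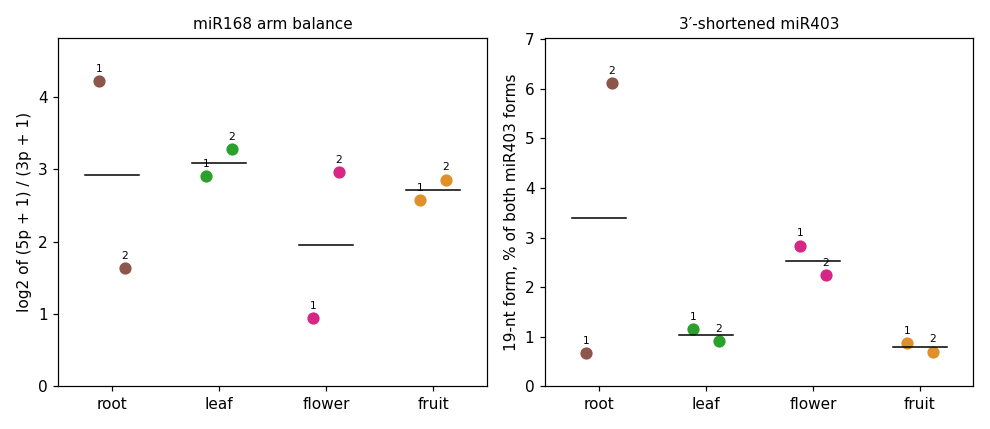
Left, log2 ratio of ath-miR168a-5p to ath-miR168a-3p in each library, with 1 added to each value; right, the 19-nt miR403 form as a percentage of both miR403 forms. Points are libraries numbered by replicate and lines are means of 2; the arm ratio is above 0 throughout, and root 2 stands at 6.12% for the shortened miR403 form against at most 2.84% elsewhere.

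The shortened guide, ath-miR168a-5p_L-2, was rare. It was 83.2 and 0 for root, 22 and 19.3 for leaf, 7.99 and 3.33 for flower, and 20.2 and 18.9 for fruit, so that leaf and fruit lay above flower without overlap. Its share of both forms lay between 0.127% and 0.268% in the 7 libraries where it was listed above 0. At the depth of root 2, 3 reads would be 0.329% of both forms, so a lower share there was not detectable at this depth. Its F test was not called (adjusted p = 0.812, limma). Without root 1 it was called (adjusted p = 0.0422, limma), with root then represented by the library at 0.

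The other pair of miR168 forms, ata-miR168-5p and ata-miR168-3p_1ss6CG, matched miR168 of a grass. They were identical to ath-miR168a-5p at 19 of 21 bases and to ath-miR168a-3p at 18 of 21, and formed 15 Watson-Crick and 2 G:U pairs with each other with 2 bases over at each 3′ end. ata-miR168-5p was 15.6 for flower 1, 14.8 for fruit 2 and 8.54 for root 1, and was listed at 0 in the other 5 libraries. ata-miR168-3p_1ss6CG was 14.3 for flower 1 and 30.4 for fruit 2, and was listed at 0 in the other 6. Thus each appeared in 1 replicate of flower and of fruit but not in the other, and neither was called by the F test (adjusted p = 0.766 and 0.591, limma).

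Other sequences shared that occurrence. A pattern noticed in the values was above 0 in flower 1 and fruit 2 and at 0 in root 2, both leaf libraries, flower 2 and fruit 1. It held for 6 of the 270 sequences, 4 of them besides the ata-miR168 forms that it describes. All 4 carried the name of a grass, as did 44 of the 270, or 16.3%. Besides the miR168 forms these were ata-miR528-5p, of a family known from monocots, at 23.3 for flower 1 and 36.9 for fruit 2, tae-miR9773_R+1 at 30.2 and 38.7, bdi-MIR7757-p5_1ss18CT at 29.4 and 51.6, and bdi-miR393b-3p at 6.05 and 10.1. What part this has in the values of the ata-miR168 forms was not tested, and the sequences of those forms are not shown.

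miR162, the regulator of DICER-LIKE 1, was led by lus-miR162a, the least variable of the abundant forms, with a highest value 4.22 times the lowest. It was 946 for root 1, 2142 for root 2, 587 for leaf 1, 1106 for leaf 2, 864 for flower 1, 1236 for flower 2, 2478 for fruit 1 and 1826 for fruit 2. Fruit lay above leaf and flower without overlap, and all other pairs of tissues overlapped. The means were 2152 ± 461 for fruit, 1544 ± 846 for root, 1050 ± 263 for flower and 847 ± 367 in leaf (SD, n = 2). Neighbours in this order overlapped. Leaf minus fruit was -1.40 ± 0.73 on the log2 scale, 2.54-fold higher in fruit (SE, adjusted p = 0.353, limma), and flower minus fruit was -1.04 ± 0.73 (SE, adjusted p = 0.582, limma). The F test was not called (adjusted p = 0.512, limma), and the adjusted p lay between 0.231 and 0.764 in 13 alternatives.

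The opposite strand of miR162 was scarce but present in 7 of 8 libraries. ath-miR162a-5p_L-1 was 14.2 and 0 for root, 14.7 and 18.6 for leaf, 25.5 and 30.4 for flower, and 44.7 and 36 for fruit. On the deposited scale the 4 tissues did not overlap with each other, in the order fruit, flower, leaf and root. As a share of the library, root 1 (0.00562%) lay above leaf 1 (0.00549%), and flower 2 (0.00566%) below leaf 2 (0.00754%). Only fruit then stayed apart from all other tissues, at 0.0249% and 0.0194%. This strand was not called by the F test (adjusted p = 0.382, limma). Without root 1 it was called, with the lone root library then at 0 (adjusted p = 0.0246, limma), and without root 2 it was not. The 3p strand exceeded it 33.9-fold in flower 1, 40.7-fold in flower 2, 40-fold in leaf 1, 59.6-fold in leaf 2, 55.5-fold in fruit 1, 50.8-fold in fruit 2 and 66.5-fold in root 1. In root 2 the 3p strand was at 2142 and the 5p strand at 0. There 3 reads would be 0.355% of both strands, below the 1.48% to 2.87% of the other libraries, so this absence was within reach of the depth.

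The remaining miR162 form was the only member called by the F test. lus-MIR162b-p3_2ss16GA17AG was 13.4 in flower 1 and 8.89 in flower 2, an implied 31 and 12 reads, and was listed at 0 in the 6 libraries of root, leaf and fruit. Both flower values exceed the worth of 3 reads in every library without it, of which the highest is 7.62 in root 2. It was higher in flower than in root (adjusted p = 0.0213, limma), leaf (adjusted p = 0.0389, limma) and fruit (adjusted p = 0.0425, limma), and called by the F test (adjusted p = 0.0305, limma). Because the comparisons use the same 2 flower libraries, they are not independent. All calls held without root 1, without root 2 and, for the comparisons that remain, without both. They were lost under each of the other 10 alternatives, with an F test adjusted p of 0.0547 to 0.222 in the 8 that tested it. Without flower 1 or flower 2 it was above 0 in a single library and was not tested. It also passed the filter on low values, a value of at least 1 in 2 libraries, only through flower, so a form with these values had to differ between flower and the rest, and the calls are given as a description.

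**Figure D3:**
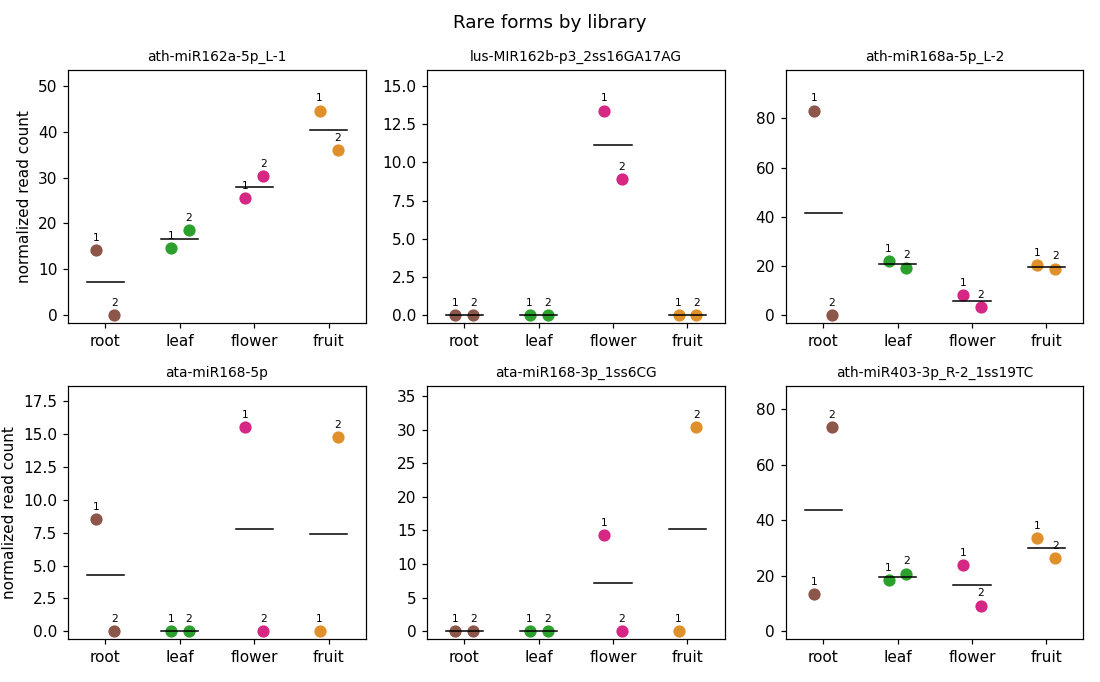
Normalized read count (linear axis) of the 6 rare forms in each library, by tissue; points are libraries numbered by replicate and lines are means of 2. lus-MIR162b-p3_2ss16GA17AG is above 0 in flower alone, at 13.4 and 8.89, and both ata-miR168 forms share flower 1 and fruit 2.

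miR403, the regulator of AGO2, was led by mes-miR403a_1ss19TC, highest in fruit and lowest in flower. It was 2009 for root 1, 1131 for root 2, 1572 for leaf 1, 2273 for leaf 2, 821 for flower 1, 404 for flower 2, 3802 for fruit 1 and 3718 for fruit 2. Both fruit libraries lay above the other 6 and both flower libraries below the other 6, while root and leaf overlapped. The means were 3760 ± 59.9 for fruit, 1922 ± 496 for leaf, 1570 ± 621 for root and 613 ± 295 in flower (SD, n = 2). Fruit was 6.14-fold above flower, with a log2 difference, flower minus fruit, of -2.70 ± 0.69 (SE, adjusted p = 0.102, limma), and leaf was 3.14-fold above flower (adjusted p = 0.218, limma). The F test had an unadjusted p of 0.0362 and was not called after adjustment (adjusted p = 0.137, limma), and in 13 alternatives the adjusted p ran from 0.0590 to 0.352. As a share of the library the form was 2.12% and 2% for fruit, 0.588% and 0.923% for leaf, 0.793% and 0.602% for root, and 0.366% and 0.0754% for flower, which leaves fruit highest and flower lowest.

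The 3′-shortened copy of miR403 had its highest mean in root, at 43.6, which rests on root 2. The other means were 29.9 for fruit, 19.6 for leaf and 16.6 for flower, in the order of the longer form. Fruit lay above leaf and flower without overlap, and leaf and flower overlapped. ath-miR403-3p_R-2_1ss19TC was 13.5 and 73.7 for root, 18.3 and 20.8 for leaf, 24 and 9.26 for flower, and 33.5 and 26.3 for fruit, and its highest value was in root 2, the library rich in 18- and 19-nt sequences. Its share of both forms was 6.12% for root 2 and 0.668% for root 1, 1.15% and 0.906% for leaf, 2.84% and 2.24% for flower, and 0.873% and 0.702% for fruit. The part of that library's short sequences in this value was not tested. The 5′-shortened miR168 copy, by contrast, was at 0 in root 2. The F test of the shortened miR403 was not called (adjusted p = 0.812, limma).

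Levels of the 3 guide strands, all 21 nt long, were also set against each other within libraries. ath-miR168a-5p exceeded lus-miR162a in 8 of 8 libraries, by 48-fold in root 1, 1.08-fold in root 2, 15.4-fold in leaf 1, 6.73-fold in leaf 2, 3.45-fold in flower 1, 2.13-fold in flower 2, 4.09-fold in fruit 1 and 5.95-fold in fruit 2. The ratio was higher in both leaf libraries than in any flower or fruit library. mes-miR403a_1ss19TC exceeded lus-miR162a in root 1, leaf and fruit, by 1.53- to 2.68-fold, and was below it in root 2, at a ratio of 0.528, and in flower, at 0.95 and 0.327. Together the members made up 20.1% of the listed total of root 1, 10.1% and 9.7% of fruit, and 4.66% and 4.73% of leaf. They made up 3.41% of root 2, and 2.81% and 0.868% of flower.

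Across the whole set, all 10 members passed the filter on low values. The F test called 1 of the 10, against 10 of 216 sequences, or 4.63%, and 2 of the 10 had an unadjusted p under 0.05, against 67 of 216. Since the called member passed the filter only through the tissue where it was high, nothing about the members is read from these counts or from those by pair. By pair, the same member, lus-MIR162b-p3_2ss16GA17AG, was the 1 called between root and flower, where 2.78% of sequences were called and 1.85% as higher in flower. It was also the 1 called between leaf and flower, where 2.31% were called and 1.39% as higher in flower, and between flower and fruit, where 2.31% were called, all as higher in flower. Between root and leaf, root and fruit, and leaf and fruit limma called 0 members, with 0 at an unadjusted p under 0.05, against 8.33%, 2.78% and 3.7% of all sequences called. Libraries of flower and fruit did not overlap, in either direction, in 7 of 10 members, against 45.8% of the sequences tested. Leaf and fruit did not overlap in 6 members, against 52.8%, leaf and flower in 5, against 52.8%, and root and flower in 3, against 36.1%. Root and fruit did not overlap in 2, against 31.9%, and root and leaf in 1, against 41.7%. The members include shortened copies and both strands of a duplex, so they are not independent of each other. The median log2 difference, flower minus fruit, was -0.99 over the 10 members and 0.39 over all 216, and leaf minus fruit it was -0.86 against 0.03. Both fruit libraries lay above the other 6 in 2 members, mes-miR403a_1ss19TC and ath-miR162a-5p_L-1, and in 4.17% of the sequences tested. Both flower libraries lay below the other 6 in 1 member, mes-miR403a_1ss19TC, and in 1.85%.

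**Figure D4:**
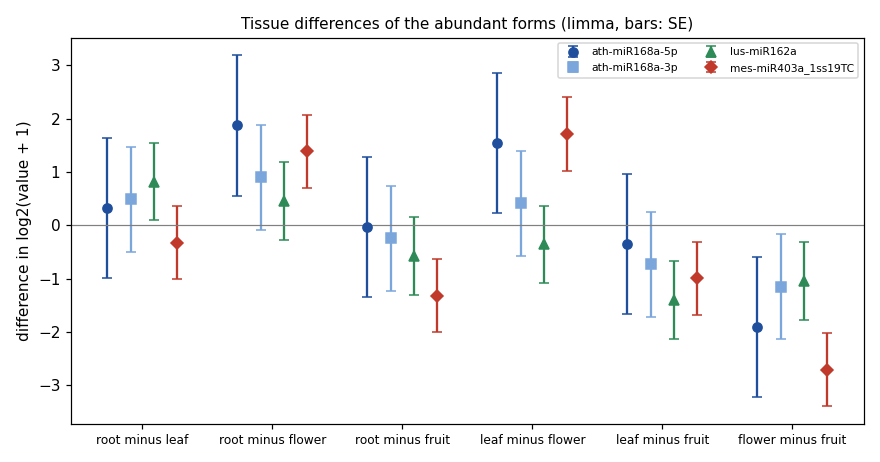
Difference in log2(value + 1) between tissues for the 4 abundant forms, first tissue minus second, from limma; symbols are estimates and bars are SE. None of the 24 differences was called; the largest is mes-miR403a_1ss19TC in flower minus fruit, at -2.70 ± 0.69.

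Other microRNAs of the small RNA pathway were counted as a list of the triggers of phased small interfering RNAs, miR390, miR173 and miR828, and miR838, which lies within the DICER-LIKE 1 gene in Arabidopsis. The table held 5 miR390 and 3 miR828 sequences and 0 of the other families, and all 8 were tested. Limma called 1 of the 8 in the F test, ptc-miR390a_R+1 (adjusted p = 0.0499), which was 4.75 and 4.44 in flower and listed at 0 elsewhere, including root 2, where those values are under the worth of 3 reads. Between pairs, it was called as higher in flower against each other tissue. It passed the filter only through flower, so these calls, too, are a description. hex-MIR390a-p3_2ss1TA21GT, at 18.9 and 20.8 in leaf and 2.59 in flower 1, was called as higher in leaf than in root (adjusted p = 0.0346, limma) and fruit (adjusted p = 0.0437, limma), both listed at 0, and it passed the filter only through leaf. Of all sequences, 4.63% were called by the F test, 8.33% between root and leaf and 3.7% between leaf and fruit, and with the replicate block limma called 0 in each of these, with 57 at an unadjusted p under 0.05 in the F test and 31 to 45 in a pair of tissues.

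Sequences with the most similar profiles were sought among 128 others with a mean of at least 10, by Pearson's r of log2 values over the same 8 libraries, a description without a test. For ath-miR168a-5p they were bdi-miR166e-5p (r = 0.816), csi-miR164 (r = 0.77) and nta-miR482a_1ss8TG (r = 0.755). The last was 122 for root 1, 5.94 for leaf 2 and listed at 0 elsewhere, so its r rests mainly on root 1. csi-miR164, of a family that targets NAC transcription factors, was 16197 and 119 for root, split between the libraries as miR168 was. For lus-miR162a they were PC-3p-1283_2426 (r = 0.87), gma-miR396a-5p (r = 0.797) and PC-5p-58724_76 (r = 0.788), and PC-3p-1283_2426, a predicted sequence, was 2905 and 1625 for fruit and 8.54 and 1825 for root. For mes-miR403a_1ss19TC they were bdi-miR166e-5p (r = 0.773), PC-5p-61518_72 (r = 0.771) and ath-miR157c-3p_R+1_1ss20CT (r = 0.715). Among the guide strands themselves, r was 0.651 between ath-miR168a-5p and mes-miR403a_1ss19TC, 0.339 between lus-miR162a and mes-miR403a_1ss19TC, and -0.168 between ath-miR168a-5p and lus-miR162a. In root that last pair ran opposite ways, with 45382 and 2312 for ath-miR168a-5p and 946 and 2142 for lus-miR162a. No r was computed without the root libraries, so whether its sign holds there was not tested.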

How the data were processed

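The deposited values are a signal: normalized read counts, per the file headers, 1 column for each of the 8 libraries. Reads were cleaned with the program ACGT101-miR, per the labels' protocols, and mapped to miRBase hairpins, per the deposited column legend. No source used here gives its version, the scaling formula or a genome build. The table's 304 entries were reduced to 270 sequences, of which 11 entries and 10 sequences were members. The worth of 1 read was taken as the largest step of which at least 90% of a library's values were whole multiples or midway between them, within 0.01 of a step; it was used only for depth and for the worth of 3 reads, which cover counting error only. A smaller step cannot be told apart, and would lower that worth. Whole reads were not recovered, so no count model was used.

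The 216 sequences that reached a value of 1 in 2 or more libraries were fitted as log2(value + 1) with limma 3.58.1 in R 4.3.3, by tissue without covariates, its empirical Bayes step using the trend option (4 residual and 2.43 prior degrees of freedom). The arm ratio was tested by an exact permutation test of the F statistic in Python 3.11.15. Both tests were tried on simulated data. The limma p-values set differences between tissues against the spread between libraries of a tissue, pooled over the 4 tissues. The spread of the root libraries therefore enters the error of every pair. Named members are all those the rule finds; similar profiles are the 3 highest r. Members and lists were chosen with earlier results of these data known. Alternatives were a pseudocount of 10, no filter, equal library totals, the replicate number as a block, leaving out each library, and leaving out both root libraries.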

Additional observations from a re-analysis of the deposited data

How the results depend on the processing

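Calls at 2 libraries per tissue were few and depended on the processing. With limma, the members called by the F test (1) and the member calls over the 6 pairs (3) were 0 and 0 with a pseudocount of 10, with no filter, with equal library totals and with the replicate block. Leaving out 1 library gave 0 to 4 and 0 to 8. In the 10 alternatives that called no member by the F test, 0 to 2 members had an unadjusted p under 0.05 in the F test and 1 to 6 in the pairs. Of all sequences, the F test called 10; no filter gave 4, equal totals 3, a pseudocount of 10 and the replicate block 0, and leaving out 1 library 0 to 53. Between root and leaf 18 were called, 2 with no filter, 8 with equal totals, 0 with the block and 0 to 44 leaving out 1 library. Between root and flower 6 were called, 0 with a pseudocount of 10, 2 with no filter, 1 with the block and 0 to 24. Between root and fruit 6 were called, 0 with a pseudocount of 10, 1 with no filter, 1 with the block and 0 to 29. Between leaf and flower 5 were called, 0 with each of those and with equal totals, and 0 to 21. Between leaf and fruit 8 were called, 2 with no filter, 0 with the block and 0 to 30. Between flower and fruit 5 were called, 0 with a pseudocount of 10, 1 with no filter, 1 with equal totals, 0 with the block and 0 to 18. In the 10 alternatives that called no member by the F test, 38 to 63 sequences had an unadjusted p under 0.05 in the F test and 17 to 51 in a pair. The counts by the F test were 53 without root 1, 43 without root 2 and 0 or 1 without any other library. Without both root libraries, chosen after seeing the data, 39 were called by the F test, 22 between leaf and flower, 29 between leaf and fruit and 19 between flower and fruit. The causes were not tested.

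The differences between replicates correlated across sequences between -0.197 and 0.238 over the 6 pairs of tissues. Sequences are not independent, so these values do not settle whether libraries with the same replicate number are paired. Equal totals moved the median log2 difference of all sequences from 0 to 0.46 for root minus flower, from 0 to 0.13 for leaf minus flower and from 0.39 to -0.07 for flower minus fruit. The mean log2 arm ratio of miR168 (2.67) was 2.66 with a pseudocount of 10 and 2.45 to 2.92 leaving out 1 library, and its exact permutation p stayed above 0.05 under these. The log2 differences printed for ath-miR168a-5p, lus-miR162a and mes-miR403a_1ss19TC did not change sign in the 13 alternatives. The libraries of these pairs did not overlap, so only equal totals could have reversed a sign. The other alternatives could not, and keeping the sign there shows nothing further. Depth limits the rare forms, above all in root 2.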
